A study of Rattus norvegicus with 15 samples.

Results

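Chemosensory receptors known from the nose and the tongue were followed in rat knee articular cartilage. They are the V1R and V2R vomeronasal receptors (Vom1r, 89 genes, and Vom2r, 69 genes), the sweet and umami taste receptors (Tas1r, 3 genes), the bitter taste receptors (Tas2r, 35 genes) and the trace amine receptors (Taar, 16 genes). Members were taken by gene symbol from the probe sets that carry a single symbol, and for the 3 genes with 2 probe sets the one with the higher mean over all arrays was used. This gave 212 of the 18166 genes named on the array, which holds 36685 probe sets.

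The right knees of Sprague-Dawley rats gave the articular cartilage, taken knee by knee, and its total RNA was hybridised to Affymetrix RaGene arrays. T0 is the newborn stage and T1 youth. T2 is adult, and the labels call T3 early-stage and T4 latter-stage elderly. There were 15 arrays, 3 at every stage, which the labels call biological replicates. The labels name no treatment, transgene or gene deletion, so all stages are untreated animals as far as described. The sources used here give no age in weeks, sex or array batch. T1 replicate 3 is youth by title and stage label but adult by source name, and was kept in youth.

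Vomeronasal receptors are G protein-coupled receptors of sensory neurons in the vomeronasal organ, where V1R receptors signal through Gnai2 and V2R receptors through Gnao1, and both lead to the cation channel Trpc2. Taste receptors sit on cells of the taste buds. Tas1r2 pairs with Tas1r3 to sense sweet compounds and Tas1r1 pairs with Tas1r3 to sense amino acids, while Tas2r receptors sense bitter compounds, and all of these use the gustducin alpha subunit Gnat3, phospholipase Plcb2 and the channel Trpm5. Trace amine receptors sense volatile amines in olfactory neurons, except Taar1, which is known mainly from the brain. V1R, Tas2r and Taar genes mostly have a single coding exon, and many members lie in clusters of near-identical copies, so that a probe set may read more than 1 copy.

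Signals are on a log2 scale, where a difference between stages is the log2 of a fold change. A signal depends on the probes of a set as well as on the transcript, so no order of expression between genes was read from it. In bulk tissue, fewer cells of a type and less RNA per cell cannot be told apart. Changes were tested with limma over all 36685 probe sets, and a gene was called risen or fallen at a Benjamini-Hochberg adjusted p under 0.05 within a comparison. The share of all probe sets called is given beside the members' counts as the background.

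Some features of the arrays stand beside every result on T3 and T4. The standard deviation of an array's signals over all probe sets lay between 2.00 and 2.05 on the 9 arrays of T0 to T2, between 1.83 and 1.97 at T3 and between 1.48 and 1.71 at T4. T4 replicate 1 had the lowest value, 1.48, and its mean correlation with the other T4 arrays was 0.791. Of 11 measured cartilage marker genes, Col2a1, Acan and Hapln1 among them, 10 fell from T2 to T4. The median signal of the 11 went from 9.13 at T2 through 7.63 at T3 to 6.39 at T4. Of all probe sets 29.4% fell from T2 to T4, and 74.8% of those in the highest quartile of signals at T0 and T1. The median change was -3.12 for the cartilage markers and -1.37 in that quartile. The part of these features in the receptors' changes was not tested, except that the counts over all members are also given after the arrays were scaled alike and without T4 replicate 1.

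Up to adulthood the receptor genes stayed at the low end of the signal range. Over the 9 arrays of T0 to T2 the mean signal of a member had a median of 2.54, from 1.55 for Vom1r102 to 5.32 for Taar7b, where the median of all probe sets was 5.01. By their mean at T0 and T1, 185 of the 212 lay in the lowest quartile of all probe sets, 26 in the next, only Taar7b in the third and 0 in the highest. The median signal of the members on each array was 2.68, 2.53 and 2.56 at T0, 2.60, 2.53 and 2.47 at T1 and 2.45, 2.50 and 2.54 at T2. These 9 values overlapped between the stages.

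From T0 to T1 the only call among the receptors was a fall of Vom2r44, and from T1 to T2 none was called. In the first comparison 4.01% of all probe sets rose and 3.54% fell, and in the second 0.488% rose and 0.403% fell. At an unadjusted p under 0.05 there were 3 members in the first comparison and 2 in the second. The median change of the members was -0.02 and then 0.01, against -0.03 and 0.02 for all probe sets.

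Vom2r44, a V2R pheromone receptor, had signals of 5.16, 4.87 and 5.55 at T0 and 3.82, 3.76 and 4.41 at T1. The newborn arrays were all above the youth arrays. The fall was 1.20 on the log2 scale, written as a change of -1.20 with a standard error of 0.29 (limma, adjusted p = 0.0198). At T2 the signals were 4.21, 5.16 and 4.82, which overlapped T0. The call was lost without T0 replicate 1, T0 replicate 3, T1 replicate 1 or T1 replicate 2, with adjusted p from 0.0605 to 0.0983. A probe set shared by Vom2r44 and the neighbouring copy Vom2r45 changed by -0.15 (adjusted p = 0.945). Marker genes of other cells also moved from T0 to T1, with a median change of 5.56 for erythroid and -2.20 for skeletal muscle markers. Their part in the fall was not tested.

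From T2 to T3 none of the receptors passed the test, but most means lay higher. The array medians of the members were 2.89, 3.04 and 2.70 at T3, all above the 9 earlier arrays. Of the 212 members 184 had a higher mean at T3 than at T2, with a median change of 0.30 against 0.09 for all probe sets and 0.26 for the probe sets of the lowest quartile of signals. Few features passed anywhere on the array in this comparison, 0.0382% upward and 0.112% downward, and 26 members had an unadjusted p under 0.05. With the arrays scaled to a common median and standard deviation, the median change of the members was 0.01.

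The members with the smallest adjusted p in this step were Vom2r63 and Vom1r58. Vom1r58, a V1R receptor, had signals of 4.52, 4.51 and 4.53 at T2 and 5.83, 5.95 and 4.79 at T3, with a change of 1.00 ± 0.26 (SE, adjusted p = 0.0846). Its T3 arrays were all above T2, with replicate 3 the nearest to T2. At T4 its arrays read 5.36, 5.34 and 5.45, and the change from T2 to T4 of 0.86 passed (adjusted p = 0.013).

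**Figure D1:**
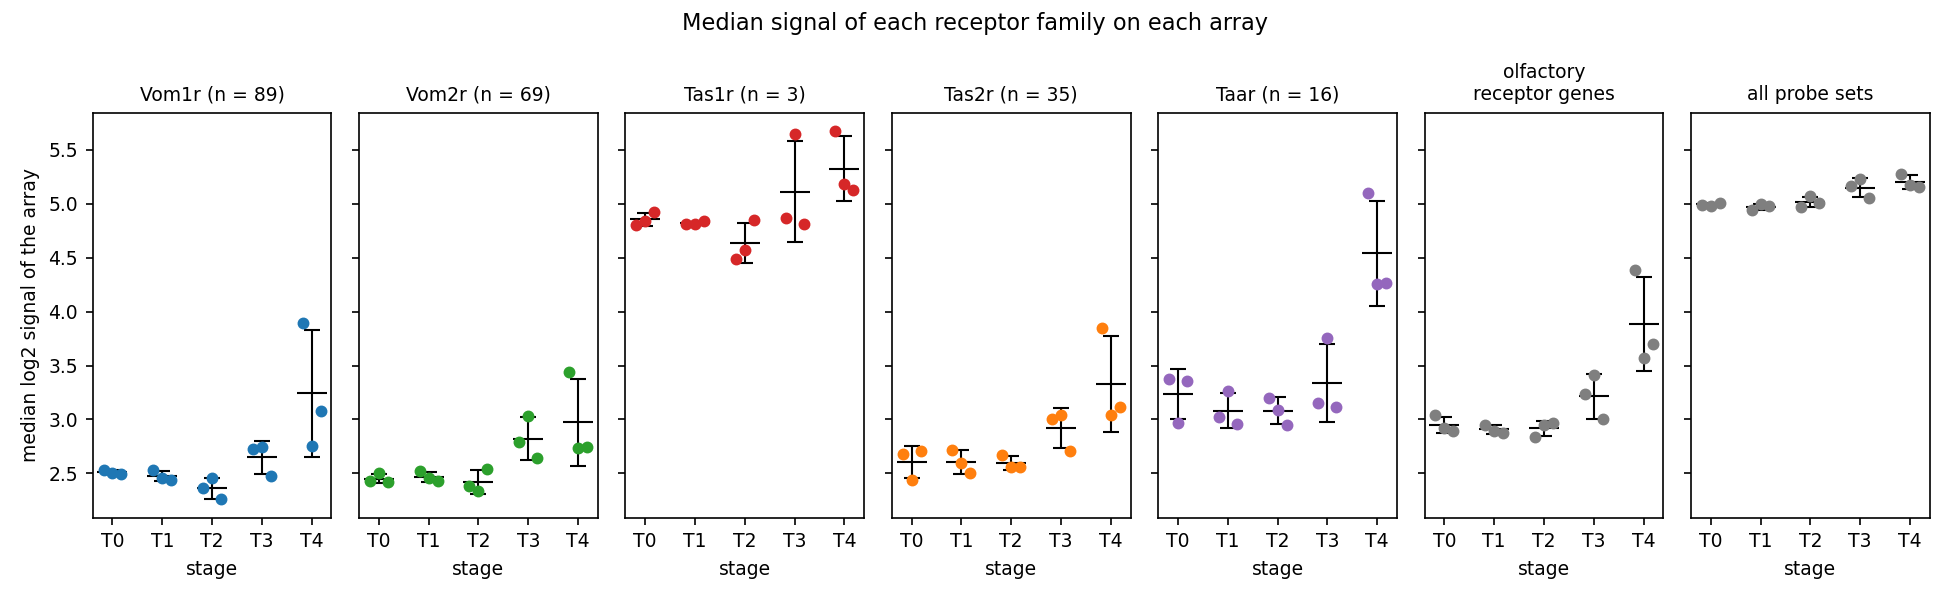
Median log2 signal of each receptor family on every array (points), with the mean and SD of the 3 arrays of a stage (bars), beside olfactory receptor genes and all probe sets. The T4 points of Taar genes lie between 4.25 and 5.10 and those of T2 between 2.95 and 3.20. With the arrays scaled to a common median and standard deviation, the median change from T2 to T4 turns below 0 for Vom2r.

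From T2 to T4, 90 of the 212 receptor genes rose and 0 fell, while 27.2% of all probe sets rose and 29.4% fell. The share that rose among the members was 42.5%, and 108 had an unadjusted p under 0.05, all of them higher. With only the arrays of T2 and T4 in the fit, 59 of the 90 calls remained. The array medians of the members were 3.84, 2.96 and 3.03 at T4, with replicate 1 far above the other two. For 106 members (50%) all T4 arrays lay above all T2 arrays, against 30.7% of all probe sets. The median change was 0.59 against 0.07 for all probe sets, and it was 0.34 after quantile normalization, 0.41 with a common median and -0.05 with a common median and standard deviation. The last scaling moved the members' median by -0.64 and that of all probe sets by -0.32, and called 45 members higher and 40 lower.

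Probe sets of the same quartile of signals showed a similar share. Of the 9172 probe sets in the lowest quartile of signals at T0 and T1, 39.2% rose and 4.59% fell from T2 to T4, with a median change of 0.51. Of the 185 receptor genes there, 77 rose (41.6%), with a median change of 0.585. The quartile is a coarse match, since the receptors lay low within it. Of 20 equal bins of all probe sets by signal, the lowest 2 held 62 and 49 members. The probe sets of these bins had median changes of 0.33 and 0.47. In the next quartile 43.7% of probe sets rose, and 12 of 26 receptor genes did. In the highest quartile, which holds none of the receptors, 3.58% rose and 74.8% fell. Olfactory receptor genes, the largest chemosensory family of the rat, had 652 of 1184 genes higher (55.1%) and 14 lower, with a median change of 0.85.

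**Figure D2:**
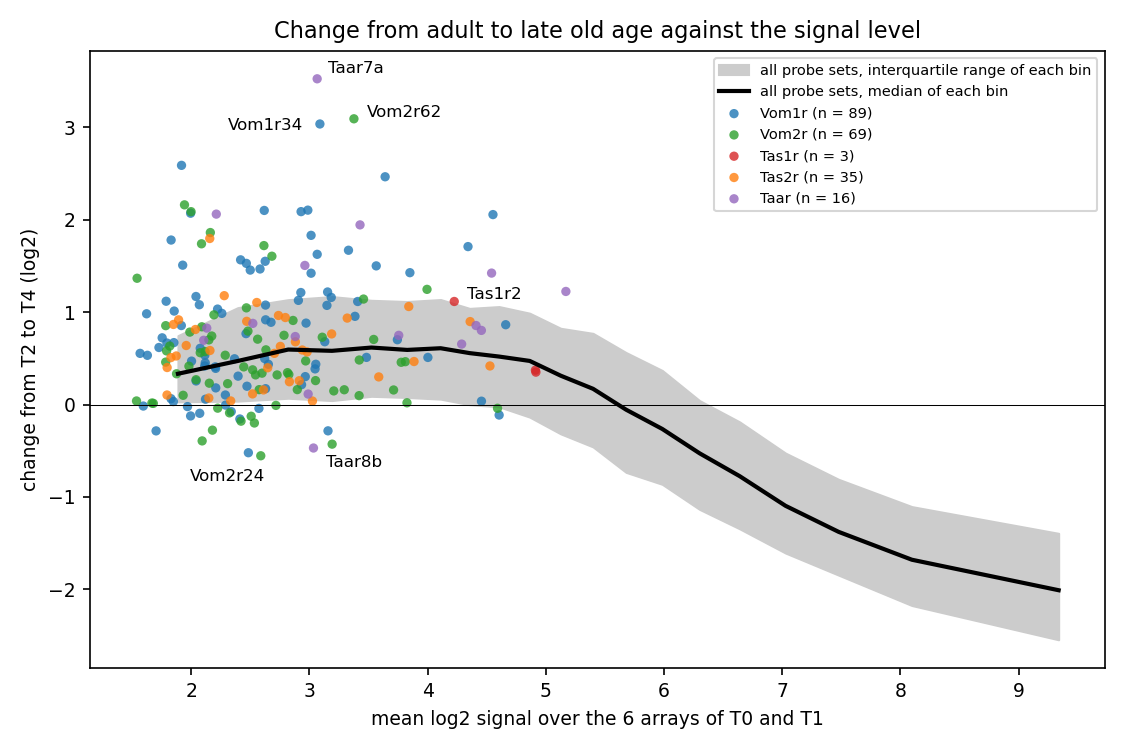
Change in log2 signal from T2 to T4 against the mean log2 signal over the 6 arrays of T0 and T1, for the 212 receptor genes (points, coloured by family) and for all probe sets (line: median of each bin of the signal, band: interquartile range). Most receptor genes lie at low signals, where the line is above 0, and Taar7a (3.52), Vom2r62 (3.09) and Vom1r34 (3.04) lie highest. With a common standard deviation of the arrays the probe sets of the lowest quartile of signals have a median of -0.14.

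The 3 arrays of T4 differed in how far the receptors rose. The median change of a member from its T2 mean was 1.08 on replicate 1, 0.31 on replicate 2 and 0.33 on replicate 3. Of the 212 members, 178, 136 and 136 lay above all T2 arrays on the 3 T4 arrays, and 124, 149 and 89 did so on those of T3. Without T4 replicate 1 the median change fell to 0.31, and 62 of the 90 calls from T2 to T4 remained. The stage mean was highest at T4 for 148 members (69.8%, against 38.1% of all probe sets and 59% and 60% of those in the 2 lowest quartiles of signals), at T3 for 46, at T0 for 10, at T2 for 5 and at T1 for 3.

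**Figure D3:**
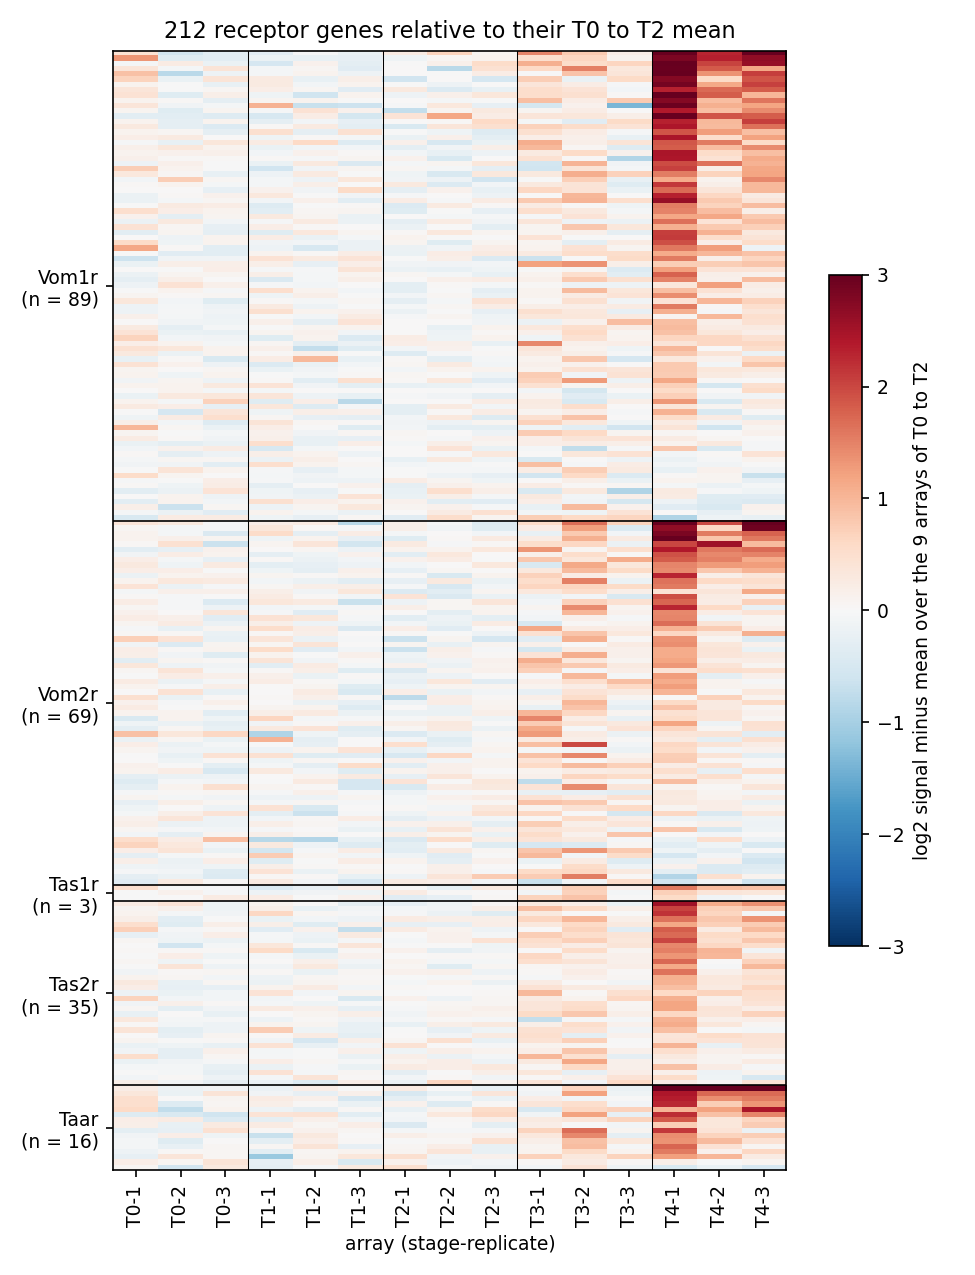
Log2 signal of each receptor gene on each array relative to its mean over the 9 arrays of T0 to T2, with genes in rows sorted within a family by their change from T2 to T4, and red above and blue below that mean. The column of T4 replicate 1 is the reddest, with 178 of 212 genes above all T2 arrays.

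Between T3 and T4, 53 receptor genes rose (25%) and 5 fell (2.36%), against 16.5% and 25.8% of all probe sets. The median change was 0.33, and -0.08 for all probe sets. With the arrays scaled to a common median and standard deviation it was -0.01, with 39 higher and 38 lower. Without T4 replicate 1 it was 0.06, with 30 higher and 3 lower. With only the arrays of T3 and T4 in the fit, 11 of the 53 rises remained. Only 3 of the 53, Vom1r20, Vom2r38 and Tas2r137, were not also called from T2 to T4. These 3 were named after their values were seen.

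Among the V1R receptors, 47 of 89 rose from T2 to T4, by 0.55 to 3.04, and the median change was 0.70. The share was 52.8%, against 27.2% of all probe sets and 39.2% of those in the lowest quartile of signals. With a common median and standard deviation 25 rose and 17 fell, with a median change of 0.09. The largest change was that of Vom1r34, with signals of 3.51, 3.92 and 3.33 at T2, 4.72, 4.03 and 3.44 at T3 and 7.58, 5.55 and 6.74 at T4. Its T4 arrays were above every earlier array, while T3 overlapped T2. It rose by 3.04 ± 0.44 (SE), or 8.20-fold (adjusted p = 0.000116). The 3 probe sets that Vom1r34 shares with its copy Vom1r39 changed by 0.10, 0.10 and 0.22, none of them called, and the first and the second of these hold identical values.

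Vom1r4 had signals of 3.75, 3.90 and 4.31 at T2, 4.81, 4.31 and 4.41 at T3 and 7.19, 5.77 and 6.37 at T4. It rose 5.52-fold from T2 to T4 (adjusted p = 5.54e-05). Vom1r23 read 1.80, 1.98 and 2.03 at T2 and 4.75, 4.25 and 4.58 at T4, a rise of 2.59 (adjusted p = 7.48e-05). A single newborn array of Vom1r23 stood at 3.24, where the other two were at 1.56 and 1.62. Vom1r56 read 4.78, 4.09 and 4.28 at T2 and 6.82, 6.19 and 6.31 at T4, a rise of 2.06 (adjusted p = 4.59e-05). For all of these genes the T4 arrays lay above all arrays of the 4 earlier stages, and the rise passed under every scaling tried.

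Vom1r92 was less even, at 4.31, 4.66 and 4.10 at T2 and 7.28, 5.40 and 5.52 at T4. One youth array had already read 5.40. Its rise of 1.71 (adjusted p = 0.0141) was lost without T4 replicate 1, where it was 1.10 (adjusted p = 0.0743). Vom1r102, the member with the lowest mean, read 1.51, 1.63 and 1.43 at T2 and 1.65, 2.52 and 2.06 at T4, a rise of 0.55 (adjusted p = 0.0382). It turned to -0.41 (adjusted p = 0.295) with a common standard deviation, and 12 of 25 alternatives lost the call. A probe set shared by Vom1r105 and Vom1r102 moved the other way, by -1.06 (adjusted p = 0.00633).

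V1R genes without a call included Vom1r79, whose mean over T0 to T2 was the highest in the family, 4.68. It read 4.47, 5.20 and 4.85 at T2 and 4.96, 4.65 and 4.56 at T4, which overlapped. Vom1r50 changed by -0.01 from T2 to T4 with a standard error of 0.20. Vom1r72 fell between T3 and T4, from 3.28, 3.13 and 3.17 to 1.63, 2.37 and 2.30, a change of -1.09 (adjusted p = 0.00644). It was the one V1R gene called lower, and its T2 arrays, at 2.19, 3.06 and 2.61, overlapped T4. The call was lost with only the arrays compared in the fit (adjusted p = 0.0606).

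V2R receptors, which have a large extracellular domain and are known to bind peptides, had fewer calls: 15 of 69 rose from T2 to T4, by 0.70 to 3.09. The share was 21.7%, under the 27.2% of all probe sets, and the median change was 0.42, or -0.32 with a common standard deviation. Vom2r62 read 3.52, 3.31 and 2.94 at T2, 3.88, 5.01 and 3.9997 at T3 and 7.31, 5.31 and 6.43 at T4. Each step lay above the one before without overlap. The rise from T2 to T4 was 3.09 ± 0.45 (SE), or 8.53-fold (adjusted p = 0.000118). Vom2r36 rose by 1.25, from 3.95, 4.04 and 4.36 to 5.50, 5.30 and 5.28 (adjusted p = 0.00354), although a T3 array had read 5.18.

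The V2R genes also held 4 of the 5 falls between T3 and T4. That was 5.8% of the family, against 25.8% of all probe sets and 5.96% of those in the lowest quartile of signals. With only the arrays compared in the fit, 11 members rose in this step and 0 fell. Of the 69 V2R genes, 22 had their highest mean at T3, as had 2214 of the 9172 probe sets in the lowest quartile. Vom2r63 read 2.18, 2.77 and 2.56 at T2, 3.35, 3.82 and 3.29 at T3 and 2.37, 2.25 and 2.52 at T4. The T3 arrays stood above both neighbouring stages, and the fall to T4 was a change of -1.11 (adjusted p = 0.00393). Vom2r50 read 2.14, 2.28 and 2.10 at T2, 2.70, 2.74 and 2.42 at T3 and 1.83, 1.71 and 1.81 at T4, a change of -0.84 between T3 and T4 (adjusted p = 0.00412). Vom2r69 changed by -0.82 (adjusted p = 0.0284) and Vom2r48, named after its value was seen, by -0.53 (adjusted p = 0.0454) in that step. Both calls were lost after quantile normalization (adjusted p = 0.053 and 0.0845). In all, 6 of 25 alternatives lost that of Vom2r69, among them the fits without T3 replicate 1 (-0.57, adjusted p = 0.129), T3 replicate 3 (-0.79, adjusted p = 0.0726), T4 replicate 1 (-0.73, adjusted p = 0.081) and T4 replicate 3 (-0.78, adjusted p = 0.0671). Vom2r76, nearest to no change from T2 to T4 in the family, read 3.60, 2.30 and 2.64 at T4, a range that covered its T2 arrays. Vom2r29, the V2R gene with the lowest mean, read between 1.66 and 1.79 at T4 and between 1.504 and 1.90 at T2.

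Of the sweet and umami receptors, Tas1r2 rose and the other two did not pass. Tas1r2, the subunit specific to the sweet receptor, read 4.25, 4.001 and 4.50 at T2, 4.40, 4.97 and 4.40 at T3 and 5.79, 5.18 and 5.12 at T4. All T4 arrays were above all earlier ones, and the rise from T2 was 1.12 ± 0.26 (SE, 2.17-fold, adjusted p = 0.00242). The rise passed in all 25 settings run for every member, the reported one included. Its step from T3 to T4, 0.78 (adjusted p = 0.0264), was lost without T4 replicate 1 (0.56, adjusted p = 0.104), T3 replicate 1 or T3 replicate 3.

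Tas1r3, the subunit common to the sweet and the umami receptor, read 4.49, 4.57 and 4.85 at T2, 5.49, 5.67 and 4.82 at T3 and 5.40, 4.73 and 4.83 at T4. The stages overlapped, and the change from T2 to T4 was 0.35 ± 0.24 (adjusted p = 0.23). Tas1r1, the umami subunit, read 5.20, 5.01 and 4.97 at T2 and 5.67, 5.32 and 5.31 at T4, with a change of 0.37 ± 0.21 (adjusted p = 0.149). Whether Tas1r2 differed in its change from the other two was not tested.

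All 35 bitter receptors had a higher mean at T4 than at T2 and 18 of them rose, by 0.51 to 1.80, with a median change of 0.585. The share that rose was 51.4%, against 27.2% of all probe sets and 39.2% of those in the lowest quartile of signals. In that quartile 7067 of 9172 probe sets had a higher mean at T4 than at T2. The median change of the bitter receptors depended on the scaling. With a common median and standard deviation that median was 0.00, and 2 rose and 4 fell, so the shared direction did not hold under that scaling. Tas2r13 read 1.84, 1.97 and 2.12 at T2, 2.38, 2.29 and 1.89 at T3 and 4.65, 3.22 and 3.46 at T4. Its T4 arrays were above all others, and it rose 3.47-fold (adjusted p = 0.000359). Tas2r138, the counterpart of the human receptor for phenylthiocarbamide, read 4.18, 4.11 and 4.11 at T2 and 5.56, 4.75 and 5.29 at T4, a rise of 1.06 (adjusted p = 0.0023). These are the 2 bitter receptor genes that rose in all 25 settings, and Tas2r138 was named for that after its values were seen.

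Other bitter receptors were less steady. Tas2r139 read 4.43, 4.04 and 4.22 at T2 and 5.84, 5.34 and 4.22 at T4, and its rise of 0.90 (adjusted p = 0.0417) was lost in 14 of 26 alternatives. Among these were the fits without T4 replicate 1 (0.54, adjusted p = 0.192) and without T4 replicate 2 (0.79, adjusted p = 0.102). Tas2r126, with the highest mean over T0 to T2 in the family, read 4.35, 4.73 and 4.87 at T2 and 5.68, 4.90 and 4.63 at T4, which overlapped. Tas2r123, with the lowest mean, read 1.73, 1.49 and 1.61 at T2 and 2.63, 1.72 and 1.68 at T4, where replicate 1 alone stood out. Tas2r135 changed by 0.04 ± 0.25 (SE).

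**Figure D4:**
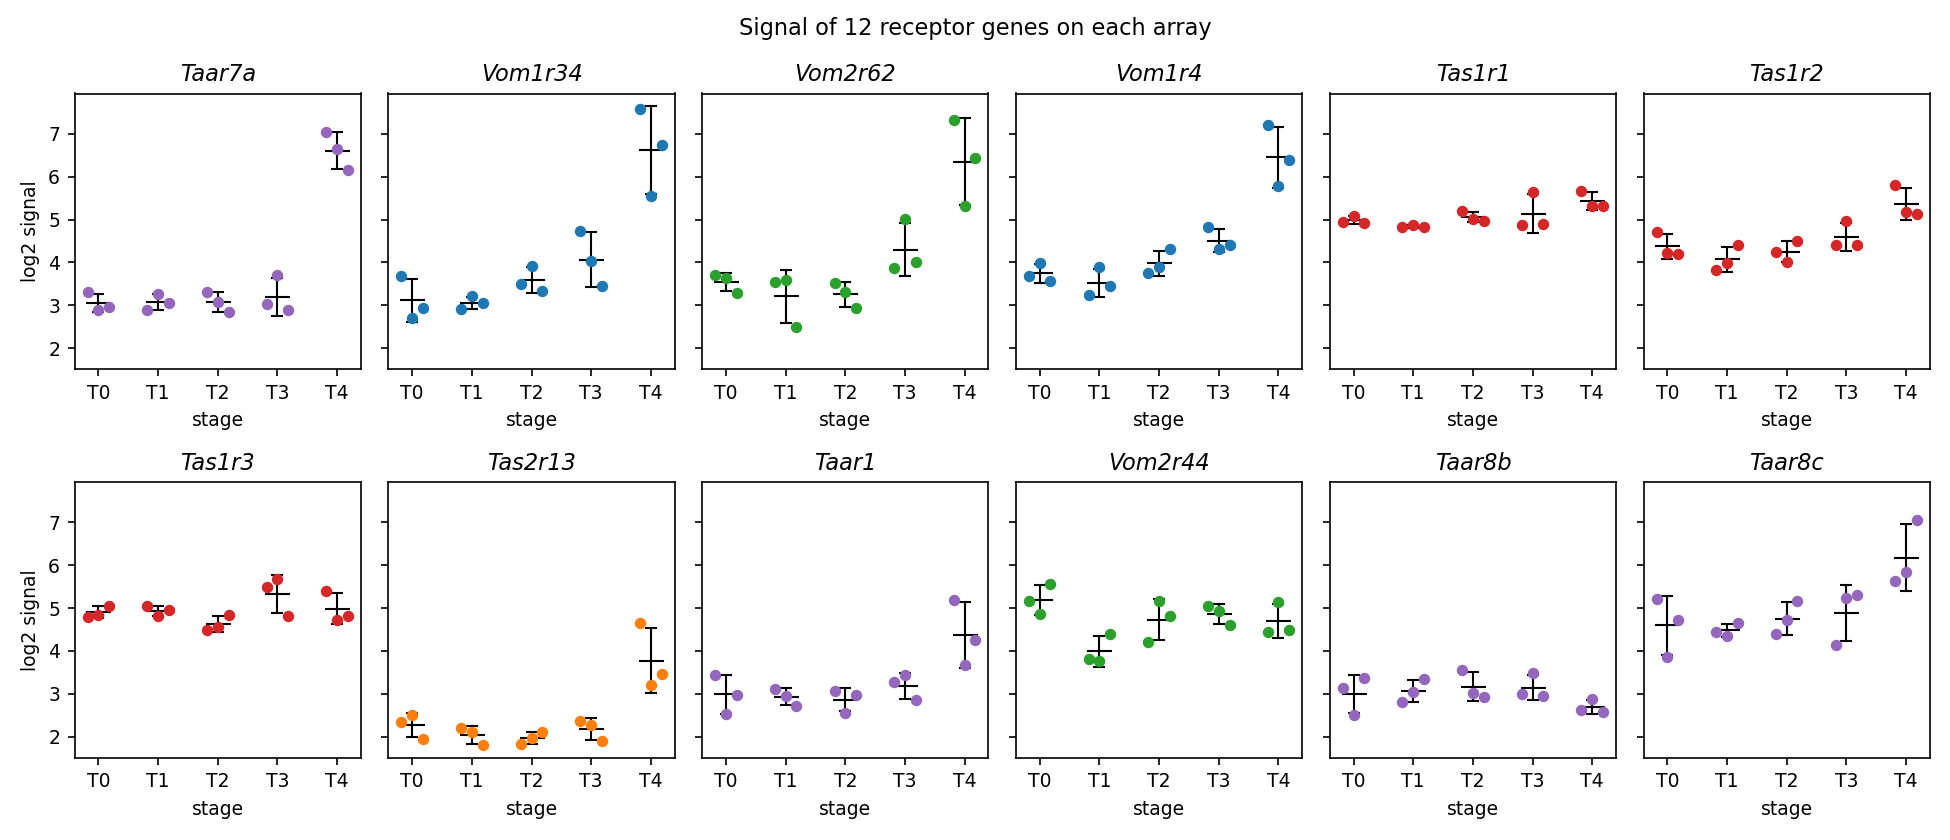
Log2 signal of 12 receptor genes on each array (points), with the mean and SD of the 3 arrays of a stage (bars). Taar7a, Vom1r34, Vom2r62 and Vom1r4 have all T4 arrays above 5.3 and all T2 arrays under 4.4, while Taar8b and Vom2r44 show no rise at T4.

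Trace amine receptors had the highest median change of the 5 families, 0.84, and 9 of 16 rose (56.2%). Of all probe sets 27.2% rose, and 39.2% and 43.7% of those in the 2 lowest quartiles of signals. Olfactory receptor genes had a like share, 55.1%, and a like median change, 0.85. With a common median and standard deviation the median change of the trace amine receptors was 0.52, with 7 higher and 2 lower. Taar7a had the largest change of all 212 members and the smallest F test p. It read 3.30, 2.90 and 2.97 at T0, 2.89, 3.26 and 3.07 at T1, 3.31, 3.08 and 2.85 at T2, 3.02, 3.71 and 2.88 at T3 and 7.03, 6.63 and 6.16 at T4. The 12 earlier arrays stayed under 3.8 and the 3 late ones above 6.1. The rise from T2 was 3.52 ± 0.26 (SE), or 11.5-fold (adjusted p = 5.19e-06), and from T3 it was 3.40 (adjusted p = 2.6e-05). A probe set shared by Taar7a and Taar7c read under 2.2 on every array and changed by 0.41 (adjusted p = 0.0734).

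The 300 bases around the annotated start of Taar7a, 250 before it and 50 after, are shown as RefSeq gives them on GRCr8, because this gene carried the largest change. They lie on the plus strand at chr1:23269927-23270226, and the capitals mark the start codon, which stands at the annotated start.
Taar7a: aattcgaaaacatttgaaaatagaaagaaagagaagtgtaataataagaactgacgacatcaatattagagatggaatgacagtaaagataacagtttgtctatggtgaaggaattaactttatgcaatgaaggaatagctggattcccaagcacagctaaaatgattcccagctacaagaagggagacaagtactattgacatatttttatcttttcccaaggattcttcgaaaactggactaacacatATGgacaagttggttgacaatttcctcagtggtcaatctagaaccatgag

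The annotated starts of these genes often coincide with the start of the coding sequence. Windows were found for 192 of the 212 members, and an ATG stood exactly at the start in 140 of them (72.9%), against 10.5% of the 27457 windows of all genes. In these cases the window before the start need not be the promoter. The members' windows had a median GC content of 37.0% against 52.3% and a median of 1 CpG against 7. The letters TATAAA, on either strand and anywhere in the window, were found in 73 of 192 (38.0%) against 14.3%. The share was 35.0% of the 80 windows of members that rose from T2 to T4 and 40.2% of the 112 windows of members not called.

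Other Taar genes rose less. Taar1, the receptor for tyramine and phenylethylamine, read 3.07, 2.55 and 2.97 at T2, 3.28, 3.44 and 2.85 at T3 and 5.18, 3.67 and 4.25 at T4. Its T4 arrays lay above all others, and the rise from T2 was 1.51 ± 0.34 (SE, adjusted p = 0.00204). The step from T3, 1.18 (adjusted p = 0.0135), was lost without T4 replicate 1 (0.77, adjusted p = 0.0562) or T3 replicate 3 (1.01, adjusted p = 0.0563). Taar7b read 5.27, 5.64 and 5.94 at T2 and 7.54, 6.20 and 6.78 at T4, but a T3 array had read 6.52. Its rise of 1.22 (adjusted p = 0.016) was lost without T4 replicate 1 (0.87, adjusted p = 0.0782) or T2 replicate 1 (1.05, adjusted p = 0.0649).

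Taar7d and Taar2 did not pass. Taar7d, the Taar gene with the lowest mean, read 2.05, 2.08 and 2.06 at T2, 2.77, 3.80 and 2.20 at T3 and 4.22, 2.51 and 1.94 at T4. Its T4 arrays spread on both sides of T2, with a change of 0.83 ± 0.48 (SE). Taar2 changed by 0.11 ± 0.19 (SE), and by -0.57 (adjusted p = 0.0266) with a common standard deviation.

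The 16 Taar genes lie side by side on 1 chromosome, with no coding gene of another family between the first and the last. Changes along this cluster ranged from -0.47 to 3.52. In chromosomal order, Taar9 changed by 0.80, Taar8c by 1.42, Taar8b by -0.47 and Taar8a by 0.70, of which only Taar8c was called. Taar8c read 4.39, 4.72 and 5.15 at T2 and 5.64, 5.83 and 7.06 at T4 (adjusted p = 0.0109), and lost its call without T4 replicate 3 (0.98, adjusted p = 0.0558). Taar8b read 3.56, 3.02 and 2.93 at T2 and 2.62, 2.89 and 2.58 at T4 (adjusted p = 0.136), or -1.22 with a common standard deviation (adjusted p = 0.0029). Further along, the neighbours Taar7a, Taar6, Taar5, Taar4 and Taar3 rose, by 3.52, 1.94, 0.86, 0.75 and 0.88, and they are followed by Taar2, which was not called, and Taar1. The calls of Taar4 and Taar3 were lost under each of the 3 other scalings, with adjusted p from 0.064 to 0.149 and from 0.0737 to 0.441. Of the genes in this paragraph, Taar9, Taar8b, Taar8a, Taar6, Taar5, Taar4 and Taar3 were named after their values were seen.

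The start windows of Taar8b and Taar8c are shown because their changes had opposite signs while the windows are nearly the same. They are identical at 283 of 300 bases (94.3%) in RefSeq on GRCr8, and all 17 bases that differ, in capitals, lie before the start. Taar8b is at chr1:23124056-23124355 and Taar8c at chr1:23108843-23109142, both on the plus strand.
Taar8b: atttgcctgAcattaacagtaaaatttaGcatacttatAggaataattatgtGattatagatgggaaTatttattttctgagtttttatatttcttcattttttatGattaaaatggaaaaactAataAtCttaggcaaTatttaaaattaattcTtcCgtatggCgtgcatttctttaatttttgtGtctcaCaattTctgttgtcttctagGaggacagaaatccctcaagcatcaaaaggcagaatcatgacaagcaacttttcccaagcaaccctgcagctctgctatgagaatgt
Taar8c: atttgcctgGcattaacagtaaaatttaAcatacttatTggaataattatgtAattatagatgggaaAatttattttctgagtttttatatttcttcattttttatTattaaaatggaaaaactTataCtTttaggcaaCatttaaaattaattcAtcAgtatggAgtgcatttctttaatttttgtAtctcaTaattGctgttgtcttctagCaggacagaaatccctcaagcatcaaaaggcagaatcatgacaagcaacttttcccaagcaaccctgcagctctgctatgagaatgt
Whether the change of Taar8c differed from that of Taar8b was not tested, and probes for such close copies may read both.

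**Figure D5:**
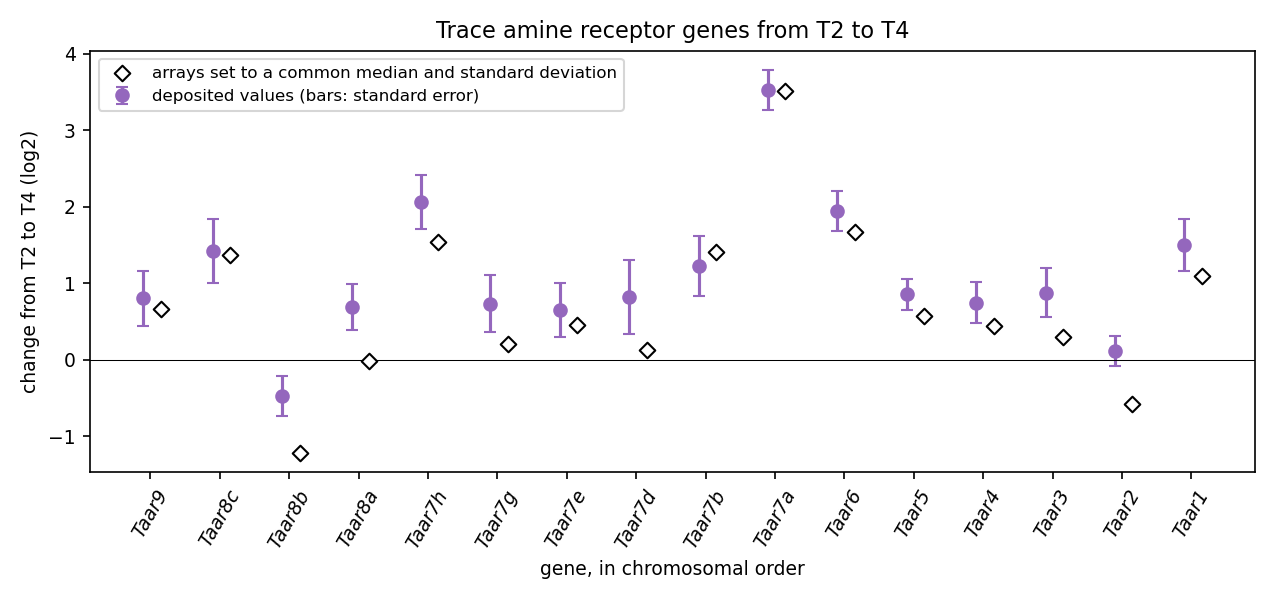
Change in log2 signal from T2 to T4 of the 16 trace amine receptor genes in chromosomal order (filled points with the standard error), and the same after the arrays were scaled to a common median and standard deviation (open diamonds). Taar7a stays at 3.52 under that scaling, while Taar2 turns from 0.11 to -0.57 and Taar8b lies at -1.22.

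Other probe sets of these families, which carry the symbols of several genes and are no members, moved either way. There were 20 of them. The one shared by Vom1r53 and Vom1r54 rose by 2.37 (adjusted p = 0.000165), and the one shared by Vom1r17 and Vom1r16 by 1.40 (adjusted p = 0.00065). The one shared by Vom2r3 and Vom2r1 fell, with a change of -0.65 (adjusted p = 0.0208).

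Genes that these receptors signal through moved in both directions. Of 20 measured genes of vomeronasal and olfactory signalling, 10 rose and 2 fell from T2 to T4, with a median change of 0.62. Among all probe sets 27.2% rose and 29.4% fell. In the second lowest quartile of signals 43.7% rose and 9.43% fell, with a median change of 0.55. The median signal of the list was 5.05 at T0 and 5.04 at T1, just inside the third quartile. There 22.1% rose and 28.6% fell, with a median change of -0.07. Trpc2, the channel of vomeronasal neurons, had means of 4.97 at T2 and 5.08 at T4 (change 0.11, adjusted p = 0.631), and the olfactory marker protein gene Omp changed by 0.21 (adjusted p = 0.543). Gnao1, the V2R partner, changed by 0.49 (adjusted p = 0.0979). Gnai2, the V1R partner, which is also used by many other cells, fell from a mean of 10.71 to 8.13 (change -2.58, adjusted p = 0.00159). Rtp1, which carries olfactory receptors to the cell surface, rose by 1.31 (adjusted p = 0.000469), and the channel subunits Cnga2 and Cnga4 rose by 0.98 and 1.63 (adjusted p = 0.000985 and 7.27e-05).

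In taste signalling, 8 of 16 measured genes rose and 2 fell, with a median change of 0.57. The background was again 27.2% higher and 29.4% lower over all probe sets, and 43.7% and 9.43% in the second lowest quartile of signals. The gustducin gene Gnat3 had a mean of 2.71 at T2 and 3.16 at T4 (adjusted p = 0.107). Trpm5 rose by 1.17 (adjusted p = 0.000541), the ATP channel subunit Calhm1 by 1.04 (adjusted p = 0.000817) and the transcription factor Pou2f3 by 1.18 (adjusted p = 0.00505). Plcb2, also known from white blood cells, fell from 8.19 to 6.28 (change -1.90, adjusted p = 0.000316).

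Defining markers of the cells that use these receptors were measured beside them. The 8 vomeronasal and olfactory neuron markers had a median of 4.61 in newborn, 4.60 in adult, 5.02 in early-stage and 5.15 in latter-stage elderly cartilage, and 4 rose and 1 fell from T2 to T4. The 7 taste cell markers had a median of 4.52, 4.51, 4.78 and 5.30 at the same stages, and 3 rose and 1 fell. Over all probe sets 27.2% rose and 29.4% fell, and in the second lowest quartile of signals 43.7% and 9.43%. Several of these marker genes stand in the signalling lists as well. Their part in the receptors' changes was not tested.

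Markers of other cells of the joint moved differently from T2 to T4. Skeletal muscle markers had 3 of 6 higher, adipocyte markers 2 higher and 1 lower of 5, and nerve and Schwann cell markers 1 higher and 1 lower of 4. Erythroid markers had 3 of 4 lower, neutrophil and myeloid markers 3 of 7, B cell markers all 3, and osteoblast markers 3 lower and 1 higher of 5. Genes with ribosomal protein symbols had 22 higher and 54 lower of 126. Beside these counts, 27.2% of all probe sets rose and 29.4% fell, and in the highest quartile of signals 3.58% rose and 74.8% fell. In the second lowest, where the nerve and Schwann cell median lay at T0 and T1, 43.7% rose and 9.43% fell. Some markers had moved before T2. Skeletal muscle markers had medians of 11.17, 9.26 and 5.02 at T0, T1 and T2. Erythroid markers had 5.48, 11.23 and 10.87, and neutrophil and myeloid markers 5.93, 9.65 and 11.64. The part of these cells in the receptors' changes was not tested.

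Over the 5 stages, 73 of the 212 receptor genes passed limma's F test (34.4%), against 60.1% of all probe sets and 40.8% of those in the lowest quartile of signals. By family these were 36 of 89 Vom1r, 16 of 69 Vom2r, 1 of 3 Tas1r, 12 of 35 Tas2r and 8 of 16 Taar genes. Without the T4 arrays 12 members passed. The rise from T2 to T4 was called in all 25 settings run for every member, the reported one included, for 42 members: 24 Vom1r, 10 Vom2r, 1 Tas1r, 2 Tas2r and 5 Taar genes. Under the 4 scalings alone, the deposited values among them, it was 45 members.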

How the data were processed

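Log2 signals for 36685 probe sets on 15 arrays were deposited by the authors, who made them with RMA (background correction, normalization between arrays and summary of probes), per the submitters' processing notes. The sources used here give no software version, library file or genome build. The spread of the signals still differed between arrays after RMA, and the alternatives include scalings that remove this.

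Probe sets were named from the platform annotation: 18511 carried 1 symbol, 575 several and 17599 none. The Entrez identifiers of 208 of the 212 members were found in a RefSeq table, all as protein coding genes. Olfactory receptor genes were taken by Olr or Or symbols, since the annotation uses both.

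In limma 3.58.1 (R 4.3.3), lmFit and eBayes fitted stage means over the 15 arrays, with Benjamini-Hochberg adjustment over all probe sets in each of 5 comparisons and in a moderated F test. On simulated data for T2 to T4 (36685 probe sets), 100 probe sets were changed by log2 1 and 100 by log2 2. Of these 19% and 70% were recovered, with 7 false calls. The simulation gave a probe set the same spread at every stage. In the real arrays the median SD between replicates over all probe sets was 0.20 at T2 and 0.43 at T4, and 9960 probe sets rose and 10768 fell. The simulated shares therefore do not give the recovery or the false calls of the real comparison.

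Members and lists (taste signalling, vomeronasal and olfactory signalling, cell type markers) were chosen with earlier results of these data known, so no test was run over a list. Genes were named by a rule: all Tas1r genes and Taar1, the extremes of the T0 to T2 mean in each family, the largest called changes per comparison and family, calls against the family median, the 5 smallest F test p, and the change nearest 0 in each family. Other receptor genes are marked in the text. The signalling genes given with values were picked from their lists outside this rule and do not stand for the whole list. Replicates are those of the labels. The p-values measure the spread between these arrays, pooled over the 5 stages for each probe set. The median SD between replicates over all probe sets was 0.20 at T2, 0.35 at T3 and 0.43 at T4. The p-values of comparisons with T3 or T4 may therefore be too small. The number of arrays limits the precision.

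Alternatives were quantile normalization, a common median, a common median and standard deviation, a minimum mean signal of 4, probe sets with 1 symbol, a variance trend, array weights, T1 replicate 3 placed with T2, the replicate number as a block, the lowest probe set per gene, fewer arrays in the fit, and leaving out each array.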

Additional observations from a re-analysis of the deposited data

How the results depend on the processing

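With the arrays scaled to a common median and standard deviation, the members' median change from T2 to T4 reversed to -0.0499 and that of Vom1r102 to -0.41. The median from T2 to T3 was 0.12 after quantile normalization, 0.17 with a common median and 0.0061 with a common median and standard deviation. Among the 24 members with a mean signal of at least 4 over all 15 arrays, the median was -0.11 from T0 to T1 and 0.20 from T1 to T2. Of these, 12 were called from T3 to T4, 15 from T2 to T4 and 15 by the F test. Fewer genes were tested there. The filter includes the T4 arrays, so genes high at T4 pass it more easily, and these counts give no separate support. Array weights, whose fit gave a convergence warning, called 4 members from T0 to T1, 54 from T2 to T3, 97 from T3 to T4 and 141 by the F test. From T0 to T1 there were 2 calls among probe sets with 1 symbol and 3 with only the arrays compared, and in that fit 11 from T3 to T4. Without the T4 arrays 2 were called from T2 to T3 and 12 by the F test. The cause of the reversals and of the other shifts was not tested.

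Leaving out 1 array at a time gave medians of -0.04 to 0.01 from T0 to T1, -0.02 to 0.02 from T1 to T2, 0.21 to 0.36 from T2 to T3, 0.06 to 0.46 from T3 to T4 and 0.31 to 0.73 from T2 to T4. Calls numbered 0 to 2, 0, 0 to 8, 33 to 76 and 62 to 103 in these comparisons, and 57 to 87 by the F test. The lowest values for T3 to T4 and T2 to T4 came without T4 replicate 1, and the 8 calls from T2 to T3 without T3 replicate 3.

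Deviations of same-numbered arrays from their stage means had a mean correlation of -0.017 over 30 pairs, against 0.0087 over 60 pairs of other numbers. Single same-numbered pairs ranged from -0.19 to 0.12, and whether some arrays shared a batch was not tested. With the replicate block 87 members were called from T2 to T4, 58 from T3 to T4 and 71 by the F test. Of 34 results on named genes, the alternatives kept the call and direction in 809 cases, lost the call in 62 and reversed 1. Signals of most members lie near the low end of the array, which limits what can be detected.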
